A study of Homo sapiens with 12 samples.

Results

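The 2 arginine methylation-defective derivatives of E2F1, R109K and KK, were compared directly with each other. The samples compared were the 3 R109K and the 3 KK samples, 6 of the 12 in the series, taken by their labelled cell line. The empty vector line, pTRE, served to show whether a level in either derivative was above or below that of cells without ectopic E2F1, and the WT E2F1 line is given only as a further reference.

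E2F1 is a transcription factor that binds DNA together with a DP partner and activates genes of DNA synthesis and cell cycle entry, and its free activity is held in check by the retinoblastoma protein. It can also promote apoptosis. PRMT1 and PRMT5 are arginine methyltransferases that add asymmetric and symmetric dimethyl groups, respectively, to arginines in a short stretch just before the DNA binding domain. PRMT1 acts on R109 and PRMT5 on R111 and R113, and the 2 marks are known to compete and to be read by different partners. A lysine in place of an arginine keeps the positive charge but cannot receive these marks. R109K lacks the first arginine, and KK lacks both of the others.

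The cells were U2OS, a human osteosarcoma line, in the Tet-On form, in which doxycycline turns on transcription from the pTRE promoter. Each stable line carried HA-tagged WT E2F1, HA-tagged R109K, HA-tagged KK, or the empty vector, and all of them, pTRE included, were kept under G418 and hygromycin B selection and received doxycycline at 1 μg/ml for 24 hours. Each derivative is represented by 1 stable line, so the effect of the amino acid change and other differences between the lines cannot be told apart. In addition, all lines retain their own E2F1 gene.

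The stretch of the E2F1 coding sequence that holds the mutated codons is shown because it is all that separates the derivatives by design. It lies in exon 2 of 7, in the coding part, on the minus strand of chromosome 20 (GRCh37, chr20:32268133-32268171). Capitals mark, in order, the codons of R109, R111, and R113 in the reference genome.
E2F1: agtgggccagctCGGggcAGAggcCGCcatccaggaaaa
The codons of R109 (CGG), R111 (AGA), and R113 (CGC) are thus separated from each other by 1 codon, ggc. The codons used in the constructs for lysine are not given in the sources used here.

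Reads counted on genes ranged from 21366887 to 31040903 in the 6 samples. In WT replicate 2, which entered the model only through the shared estimate of the spread, 58.7% of reads fell outside annotated genes. By chi-square per degree of freedom over all genes, both samples numbered 2 stood apart from the others of their line. KK replicate 2 differed less from R109K replicate 2 (15.3) than from the other KK samples (42.1 and 30.2), and R109K replicate 1 differed less from KK replicate 1 (14.6) than from R109K replicate 2 (25.4). The counts of genes are therefore given also without each sample. VIM (vimentin, a mesenchymal intermediate filament protein) and SPARC (a bone matrix glycoprotein) were strongly expressed in both lines. All 11 mesenchymal markers passed the filter on low counts, but so did 9 of 12 epithelial markers. Of 26 osteoblast lineage genes, however, only 16 passed the filter on low counts, and SP7, BGLAP, and IBSP were among those that failed it. CDKN2A, which U2OS cells are known to silence, had at most 1 read in any of the 12 samples. TERT, the other gene listed as a U2OS feature, did pass the filter. It failed the alternative filter of at least 10 counts in every sample, so it had few reads in some samples. Whether its level marks these cells as U2OS was not tested. Every R109K sample of TERT lay above every KK sample (log2 fold change 1.72), without an adjusted p-value under 0.05. The KK samples were widely spread, with relative levels from -1.99 to 0.18 on the log2 scale, against 0.75 to 0.93 in R109K. Over the alternative fits the log2 fold change of TERT ranged from 1.24 to 2.81. With the replicate number as a block in the 6 samples alone, its edgeR adjusted p was 0.0375. Of 12 markers of blood cells, 7 failed the filter on low counts, and the other 5 ranged from a log2 fold change of -0.34 to 0.64, with none at an adjusted p-value under 0.05.

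E2F1 RNA did not differ between the derivatives beyond the spread of their samples. Levels are given in CPM, counts of a gene relative to the size of the library scaled by edgeR's TMM method. E2F1 stood at 1283, 1259.8, and 932 CPM in the R109K samples, at 1359.6, 1478, and 1112 in the KK samples, and at 89.2, 82.9, and 101 in pTRE. The R109K and KK samples overlapped, and each derivative lay more than 10-fold above pTRE. The log2 fold change of R109K against KK was -0.18 (SE, the standard error, 0.18, edgeR adjusted p = 0.773, by its quasi-likelihood test with Benjamini-Hochberg adjustment). When replicates were compared by number within the 6 samples alone, R109K was the lower sample in every pair, and the adjusted p-value from edgeR was 0.03199 for a log2 fold change of -0.19. These reads come from the construct and the cells' own gene together, which cannot be told apart here.

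Few transcripts separated R109K from KK at the strict thresholds in the main fit, in nearly equal numbers in each direction. More were lower than higher in R109K at the wider threshold. Of 16625 genes tested, 15 (0.0902%) passed an adjusted p-value of 0.01 with a change over 2-fold, 7 higher and 8 lower in R109K. At an adjusted p-value under 0.05 with no limit on the fold, there were 194 genes (1.17%), of which 51 (0.307%) were higher and 143 (0.86%) lower in R109K. At an unadjusted p-value under 0.05, 833 genes (5.01%) were higher and 1229 (7.39%) lower in R109K. In all 194, every R109K sample lay on one side of every KK sample. Over all tested genes, every R109K sample lay above every KK sample in 9.56% and below in 11.4%. The median log2 fold change of all tested genes was 0.00, against -0.69 over the 194.

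The number of calls depended strongly on single samples and on pairing. The count of 15 became 5 without R109K replicate 1, 5 without R109K replicate 2, 1 without R109K replicate 3, 2 without KK replicate 1, 11 without KK replicate 2, and 3 without KK replicate 3. The 194 became 49, 32, 8, 21, 179, and 37 in the same order. Without WT replicate 2 they became 41 and 465. The near balance of directions at the strict thresholds also depended on the fit. Higher and lower in R109K were 11 and 30 without WT replicate 2, and 19 and 45 with DESeq2, the tool of the study. R109K and KK samples with the same replicate number deviated together from the means of their lines. With the replicate number as a block in the model of all 12 samples, 14 transcripts passed the strict thresholds, 12 of them among the 15, and 231 had an adjusted p-value under 0.05. In a model of the 6 samples alone with the same block, an alternative added after the data were seen, 129 of 16069 passed the strict thresholds (0.803%), 14 of them among the 15, and 3416 (21.3%) had an adjusted p-value under 0.05, 1573 higher and 1843 lower in R109K. This last model fits lines and replicate numbers to only 6 samples, so few degrees of freedom are left to estimate the spread. Without the block the same 6 samples gave 202 at an adjusted p-value under 0.05. Values quoted here from the 6 samples with the block are therefore descriptions. The methods of the study call the 3 samples of a line biological replicates without saying how they were kept apart, and p-values measure the spread between these samples only.

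**Figure D1:**
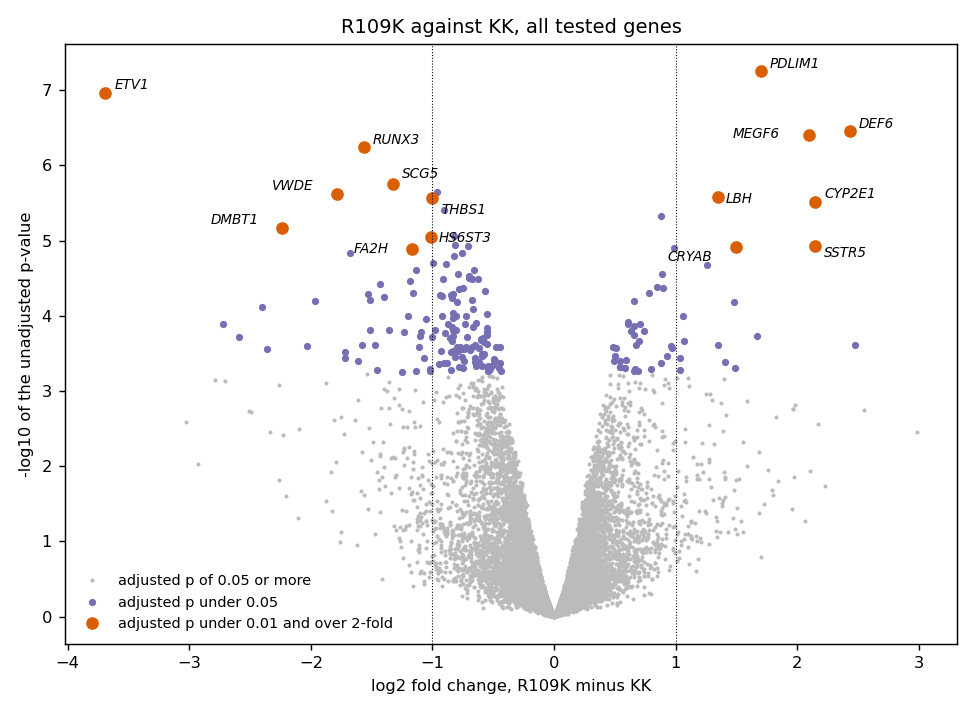
Each point is 1 of the 16625 tested genes, with the log2 fold change of R109K minus KK on the horizontal axis and -log10 of the unadjusted edgeR p-value on the vertical axis. Orange points are the 15 genes past both thresholds, named in the plot, violet points the other genes at an adjusted p-value under 0.05, and dotted lines mark 2-fold. The violet points are more numerous on the left, where R109K is lower.

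Placed against pTRE, most of these genes were further from pTRE in KK than in R109K. Against pTRE, 1196 transcripts passed the strict thresholds in R109K (7.19%) and 1814 in KK (10.9%). These comparisons use the same pTRE samples, so they are given side by side and not related to each other. Of the 194 genes, 133 (68.6%) lay on the same side of pTRE in both lines with KK further away, 46 (23.7%) lay on opposite sides, and 15 (7.73%) lay on the same side with R109K further away. Among all tested genes the shares were 55.6%, 14.1%, and 30.3%. Of the 143 genes lower in R109K, 134 were above pTRE in KK and 102 in R109K, and 98 passed the strict thresholds upward in KK and 61 in R109K. Of the 51 genes higher in R109K, 26 passed the strict thresholds downward in KK and 7 in R109K. Over all tested genes, 49.2% were above pTRE in KK and 49.9% in R109K. At the strict thresholds 7.01% of all tested genes passed upward and 3.9% downward in KK, and 4.64% upward and 2.56% downward in R109K. These genes were selected for their difference between the lines, so the counts are a description. The WT level lay nearer to KK than to R109K in 172 of the 194. The share over all tested genes was not computed, so this count has no baseline.

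Of the 7 genes past the thresholds and higher in R109K, 3 stood below pTRE in KK and closer to pTRE in R109K. PDLIM1 encodes a PDZ-LIM protein that binds alpha-actinin on actin filaments. PDLIM1 (chromosome 10, 96997329 to 97050769, GRCh37) stood at 13.8, 16.5, and 17.7 CPM in R109K, 4.497, 5.23, and 5.05 in KK, and 21.3, 22.5, and 29.5 in pTRE. All R109K samples were above all KK samples and below all pTRE samples. The log2 fold change of R109K against KK was 1.700 (SE 0.17, edgeR adjusted p = 0.000896). PDLIM1 remained past the thresholds in each of 15 alternative fits. These leave out edgeR's glmTreat, which tested the change against 2-fold and which 0 genes passed. LBH, a cofactor of transcription in limb and heart development, stood at 58.1, 53.7, and 61.5 CPM in R109K, 27.1, 20.5, and 20.3 in KK, and 71.96, 50.04, and 63.95 in pTRE. R109K thus overlapped pTRE, and every KK sample lay below both. Between the derivatives it differed by a log2 fold change of 1.35 (SE 0.19, edgeR adjusted p = 0.00451). CRYAB, the small heat shock chaperone alpha-crystallin B, stood at 15.9, 24.7, and 22.7 CPM in R109K, 5.26, 9.51, and 7.82 in KK, and 43.9, 52.9, and 51.3 in pTRE, so that the 3 groups were ordered KK, R109K, and pTRE without overlap (log2 fold change of R109K against KK 1.497, SE 0.23, edgeR adjusted p = 0.00981). HSPB2 overlaps CRYAB on the opposite strand, and whether reads were counted by strand is not given in the sources used here.

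The other 4 genes higher in R109K had KK below the pTRE mean and R109K above it. DEF6, a signalling protein known mainly from lymphocytes, stood at 5.22, 5.34, and 4.87 CPM in R109K and 1.07, 1.15, and 0.632 in KK. The pTRE samples, at 3.76, 4.03, and 5.14, were close to those of R109K, while the WT samples, at 0.285, 0.642, and 0.687, were close to those of KK. Its log2 fold change was 2.43 (SE 0.28, edgeR adjusted p = 0.00162). MEGF6, a protein with many EGF-like repeats, stood at 15.8, 14.1, and 21.9 CPM in R109K, 4.08, 2.83, and 5.13 in KK, and 5.45, 4.86, and 7.86 in pTRE, and the R109K samples were above all samples of the other lines (log2 fold change 2.09, SE 0.25, edgeR adjusted p = 0.00162).

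CYP2E1, a cytochrome P450 that oxidizes ethanol and small solvents, was a gene with few reads. It stood at 1.94, 2.22, and 2.21 CPM in R109K and 0.519, 0.384, and 0.513 in KK, and the WT and pTRE samples all lay between 0.402 and 0.608. Among the 4 lines R109K alone was thus raised, with a log2 fold change against KK of 2.15 (SE 0.30, edgeR adjusted p = 0.00459) and against pTRE of 2.03 (edgeR adjusted p = 0.000117). In the annotation used here CYP2E1 overlaps SCART1 on the same strand of chromosome 10, and SCART1 was also higher in R109K, at 8.27, 7.56, and 10.03 CPM against 3.63, 3.55, and 3.63 in KK (log2 fold change 1.25, edgeR adjusted p = 0.0125). Reads of these neighbours may not be separable. SSTR5, a somatostatin receptor, stood at 1.82, 1.45, and 1.64 CPM in R109K, 0.484, 0.2401, and 0.355 in KK, and 0.661, 0.608, and 0.845 in pTRE, with log2 fold change 2.14 (SE 0.34, edgeR adjusted p = 0.00981). With the replicate block its adjusted p was 0.0127 from edgeR, above the threshold.

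Among the 8 genes past the thresholds and lower in R109K, ETV1 had the largest difference. ETV1 (chromosome 7, 13930854 to 14031050, GRCh37) encodes a PEA3 family ETS transcription factor downstream of receptor tyrosine kinase and ERK signalling. It stood at 0.357, 0.218, and 0.164 CPM in R109K, 4.05, 2.497, and 3.32 in KK, 0.991, 0.988, and 0.588 in pTRE, and 1.78, 1.77, and 3.18 in WT. The R109K samples were below all samples of the other lines, and the KK samples were above all pTRE samples. The log2 fold change of R109K against KK was -3.69 (SE 0.39, edgeR adjusted p = 0.000896), a 12.9-fold higher level in KK. Behind these levels were 11, 6, and 4 reads in R109K and 117, 52, and 84 in KK. Against pTRE the log2 fold change was -1.75 in R109K (edgeR adjusted p = 0.00563) and 1.94 in KK (edgeR adjusted p = 0.000378). ETV1 was the only tested gene that passed the strict thresholds against pTRE in both lines with opposite signs.

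VWDE, DMBT1, and SCG5 were lower in R109K and above pTRE in KK. VWDE, a protein with von Willebrand factor D and EGF domains, stood at 0.908, 1.45, and 0.983 CPM in R109K, 3.98, 3.02, and 4.54 in KK, and 1.98, 1.79, and 1.76 in pTRE. DMBT1, a scavenger receptor glycoprotein of mucosal surfaces, stood at 0.843, 0.472, and 0.491 in R109K, 3.87, 2.11, and 2.61 in KK, and 0.991, 0.646, and 0.808 in pTRE. For SCG5, a secretory granule chaperone of the convertase PCSK2, the values were 2.17, 2.83, and 2.66 in R109K, 5.99, 6.05, and 7.11 in KK, and 3.14, 3.99, and 3.45 in pTRE. In each of the 3 genes, all KK samples were above all pTRE samples, and the R109K mean was below the pTRE mean. Between the derivatives the log2 difference was -1.79 for VWDE (SE 0.24, edgeR adjusted p = 0.00451), -2.23 for DMBT1 (SE 0.33, edgeR adjusted p = 0.00805), and -1.32 for SCG5 (SE 0.18, edgeR adjusted p = 0.00451). PCSK2 itself moved the other way, at 2.76, 2.65, and 3.15 CPM in R109K and 0.796, 1.58, and 1.03 in KK (log2 fold change 1.34, edgeR adjusted p = 0.0343).

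THBS1, a matrix glycoprotein that inhibits angiogenesis and can activate latent TGF-beta, was the most strongly counted of the called genes. It stood at 254, 217, and 220.04 CPM in R109K, 482, 389, and 514 in KK, and 299, 371, and 278 in pTRE, with the pTRE samples between those of the derivatives. R109K differed from KK by a log2 fold change of -1.002 (SE 0.14, edgeR adjusted p = 0.00451). With the replicate block the adjusted p was 0.01197 from edgeR, and in the 6 samples alone with the block the log2 fold change was -0.995, just short of 2-fold. RUNX3, a Runt family transcription factor, was the 1 called gene that lay on the same side of pTRE in both derivatives with R109K further away, at 1.94, 1.199, and 1.51 CPM in R109K, 4.77, 4.61, and 4.5 in KK, and 9.13, 9.61, and 10.9 in pTRE. Both derivatives were below pTRE, and the log2 fold change between them was -1.57 (SE 0.19, edgeR adjusted p = 0.00191).

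FA2H and HS6ST3 were near zero without ectopic E2F1 and rose strongly in both derivatives, less so in R109K. FA2H, a fatty acid hydroxylase of sphingolipid synthesis, stood at 0, 0.19, and 0.0735 CPM in pTRE, 8.88, 8.54, and 7.17 in R109K, and 19.2, 18.8, and 17.5 in KK. HS6ST3, which adds sulfate to heparan sulfate chains, stood at 0.124, 0.19, and 0.147 in pTRE, 5.02, 4.36, and 4.38 in R109K, and 9.96, 8.88, and 8.88 in KK. No R109K sample of either gene reached the lowest KK sample. The log2 fold changes between the derivatives were -1.17 for FA2H (SE 0.18, edgeR adjusted p = 0.00981) and -1.01 for HS6ST3 (SE 0.15, edgeR adjusted p = 0.00931). With the replicate block the adjusted p of FA2H was 0.0141 from edgeR. HS6ST3 was also the 1 gene among the 14 called genes with a RefSeq promoter sequence (GRCh38.p14, 250 bases before to 50 after the start site) that held one of the E2F site words TTTCCCGC, TTTCGCGC, TTTGCCGC, and TTTGGCGC on either strand. Of the 16625 tested genes 12637 had such a sequence, and 625 of these (4.95%) held one of the words. The E2F1 promoter, a known target of E2F factors, is shown beside it, with the words in capitals.
HS6ST3, plus strand, chr13:96090040-96090065: gggggaggcTTTGGCGCatgctccgt
E2F1, minus strand, chr20:33686389-33686414: caaaaaggaTTTGGCGCgtaaaagtg
These words begin 58 bases before the start site in HS6ST3 and 20 bases before it in E2F1, whose promoter holds another word, as its reverse complement GCGGCAAA, 33 bases before the start site. They are letter matches and show nothing about binding.

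**Figure D2:**
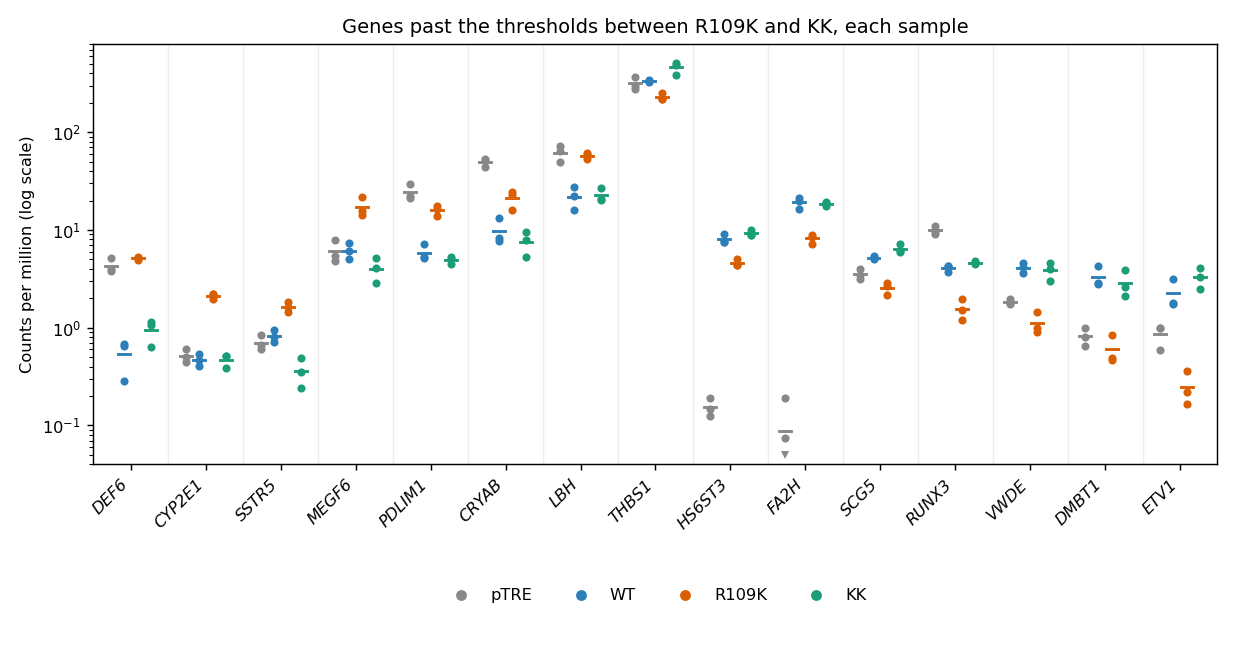
TMM-scaled CPM on a log axis for the 15 genes past the thresholds, with 1 point per sample, a bar for the mean of the 3 samples of a line, and a triangle at the lower edge for a value of 0. In DEF6, PDLIM1, LBH, and CRYAB the R109K samples lie near or toward pTRE while KK lies low. In ETV1, VWDE, DMBT1, and SCG5 the R109K mean lies below the pTRE mean while KK lies above it, though in DMBT1 the R109K and pTRE samples overlap.

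The next largest differences, at adjusted p-values under 0.05, are given first for genes that were higher in KK. RELN, the large extracellular protein that guides migrating neurons, stood at 1.04, 0.981, and 0.614 CPM in R109K, 3.98, 4.18, and 2.25 in KK, and 0.0413, 0.114, and 0.147 in pTRE (log2 fold change -1.96, edgeR adjusted p = 0.0183). KISS1, which encodes the peptide kisspeptin, stood at 3.14, 4.29, and 4.75 in R109K and 7.02, 16.2, and 16.9 in KK, with KK replicate 1 the lowest KK sample (log2 fold change -1.72, edgeR adjusted p = 0.0369). CBLN2, a synapse organizer, SCRT1, a neuronal zinc finger repressor, and SHISA7, an auxiliary protein of neurotransmitter receptors, had log2 fold changes of -1.400, -1.36, and -1.25. No pTRE sample of these 5 genes was above 2.35 CPM. Further genes lower in R109K were BCL2A1, an anti-apoptotic BCL2 family member (-2.03), CD96, a receptor of lymphocytes (-1.68), OASL, an interferon-induced protein (-1.51), GLUL, glutamine synthetase (-1.51), CEMIP, a hyaluronan-degrading protein (-1.23), and the noncoding LOC100506123 (-1.43).

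GLUL and OASL differed from that pattern, since KK was nearer to pTRE than R109K was, and both derivatives were below the pTRE mean. GLUL stood at 1.04, 1.27, and 0.696 CPM in R109K, 3.42, 2.497, and 2.68 in KK, and 4.296, 3.42, and 4.004 in pTRE, and OASL at 1.62, 2.25, and 2.17 in R109K, 3.56, 6.53, and 7.18 in KK, and 5.205, 7.14, and 5.11 in pTRE. Against pTRE, the log2 fold change of GLUL was -1.95 in R109K (edgeR adjusted p = 8.48e-05) and -0.44 in KK (edgeR adjusted p = 0.193).

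In the other direction, EDN2, the peptide ligand endothelin 2, stood at 2.92, 5.16, and 6.35 CPM in R109K, 0.934, 2.21, and 1.46 in KK, and 9.34, 9.88, and 15.2 in pTRE (log2 fold change 1.67, edgeR adjusted p = 0.0321). BST2, the interferon-induced membrane protein tetherin, stood at 3.34, 5.196, and 5.36 in R109K, 1.21, 1.97, and 1.82 in KK, and 20.2, 18.6, and 30.5 in pTRE (1.48, edgeR adjusted p = 0.0462). Both were lowest in KK, intermediate in R109K, and highest in pTRE. SLC47A1, an exporter of organic cations, was instead highest in R109K, at 7.07, 5.595, and 6.06 CPM, against 3.598, 2.497, and 2.803 in KK and 0.826, 1.37, and 0.992 in pTRE (1.07, edgeR adjusted p = 0.0338). MSLN, the surface protein mesothelin (0.97), NXPH2, a neurexin ligand (0.96), CCIN, a cytoskeletal protein of sperm (1.03), and the noncoding LINC00528 (1.48), LINC00862 (1.41), and LOC102724927 (1.04) completed the largest differences in this direction.

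ETV1 belongs to a list of 24 PEA3 factors, ERK pathway inhibitors, and early ERK targets, 21 of which were tested. In this list 2 genes (9.52%, against 1.17% of all tested genes) had an adjusted p-value under 0.05, ETV1 and PHLDA1, both lower in R109K. Every R109K sample lay below every KK sample in 9 of the 21 and above in 0, against 11.4% and 9.56% of all tested genes. The median log2 fold change was -0.16, and 16 of 21 were below 0, against 8213 of all 16625 tested genes. PHLDA1, an early response gene, stood at 20.5, 21.2, and 21.2 CPM in R109K, 41.03, 33.8, and 28.3 in KK, and 36.1, 26.8, and 27.6 in pTRE (log2 fold change -0.71, edgeR adjusted p = 0.0323). FOS and EGR1, immediate early transcription factors, had log2 fold changes of -1.101 and -0.98 that did not pass (edgeR adjusted p = 0.106 and 0.182). Their mean levels were 13.7 and 116.6 CPM in R109K and 29.4 and 230.5 CPM in KK. With the block in the 6 samples alone the edgeR adjusted p-values were 3.08e-06 and 1.40e-07, and for FOS it was 0.0192 with the block in all 12 samples. The close relatives ETV4 and ETV5 had log2 fold changes of 0.02 and -0.15 (edgeR adjusted p = 0.985 and 0.731), and their levels were above pTRE in both lines.

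FGF ligands signal through FGF receptors to the same ERK pathway. FGF4 was the 1 of 13 tested ligands at an adjusted p-value under 0.05 (7.69%, against 1.17% of all tested genes). It stood at 2.07, 1.71, and 1.31 CPM in R109K and 5.99, 4.23, and 4.58 in KK (log2 fold change -1.53, edgeR adjusted p = 0.0175). It was nearly absent from pTRE, with 2, 0, and 1 reads. Of the 8 FGF receptor genes tested, 0 passed at an adjusted p-value under 0.05. In FGFR1, FGFR2, FGFR3, and FGFRL1 all R109K samples lay below all KK samples, as in 11.4% of all tested genes. Their log2 fold changes were -0.31, -0.38, -0.57, and -0.42 (lowest edgeR adjusted p = 0.0694). At an unadjusted p-value under 0.05 there were these 4, against 7.39% of all tested genes lower, and in the 6 samples with the block 4 of 8 were lower (50%, against 21.3% of all genes in either direction).

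LRRC4, a synaptic adhesion protein, stood at 1.98, 1.49, and 1.802 CPM in R109K and 4.84, 3.94, and 3.75 in KK, without overlap. Its difference did not pass in the main fit (edgeR adjusted p = 0.0841) or with the block in all 12 samples (edgeR adjusted p = 0.0925). It did only in the 6 samples with the block (edgeR adjusted p = 4.71e-05). LRRC4 lies inside SND1, a Tudor domain gene on the opposite strand, whose level was 197.1 CPM in R109K and 198.1 in KK. Of the KCNIP genes, which encode subunits of potassium channels, KCNIP1 stood at 5.54, 7.303, and 4.46 in R109K and 2.35, 3.31, and 2.96 in KK. Its edgeR adjusted p was 0.054, with the block 0.0391 in all 12 samples and 0.000155 in the 6 samples. KCNIP2 and KCNIP3 overlapped between the lines, and KCNIP4, at 2.53, 2.65, and 2.62 in R109K and 4.497, 3.07, and 3.395 in KK, had an adjusted p-value of 0.509 from edgeR, and 0.0467 with the block in the 6 samples.

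Axon guidance, the longest of the gene lists, also held the highest number of genes at an adjusted p-value under 0.05, though not the highest share. Netrins, semaphorins, slits, and ephrins are ligands that steer growing axons and migrating cells through their receptors. Of 59 members tested, 7 (11.9%, against 1.17% of all tested genes) had an adjusted p-value under 0.05, 1 higher and 6 lower in R109K. Every R109K sample was below every KK sample in 16 and above in 9 of the 59, against 11.4% and 9.56% of all tested genes. The median log2 fold change of the list was -0.06.

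The 6 lower members were all receptors, and 3 of them, EPHB6, NEO1, and NRP1, are named here after their values were seen. EPHA4, an Eph receptor, stood at 12.3, 10.1, and 12.98 CPM in R109K, 34.9, 17.4, and 27.9 in KK, and 7.06, 4.86, and 5.95 in pTRE, with KK replicate 2 the lowest KK sample but above every R109K sample (log2 fold change -1.18, SE 0.20, edgeR adjusted p = 0.0149). UNC5B, a netrin receptor, stood at 41.3, 37.1, and 38.6 in R109K, 77.4, 61.8, and 66.8 in KK, and 19.6, 21.6, and 22.2 in pTRE (-0.82, SE 0.13, edgeR adjusted p = 0.00981). PLXNA4, a semaphorin receptor, stood at 5.705, 3.56, and 4.71 in R109K, 11.5, 8.21, and 10.4 in KK, and 1.98, 2.28, and 1.95 in pTRE (-1.104, SE 0.22, edgeR adjusted p = 0.0321). In these 3 genes pTRE was lowest, R109K intermediate, and KK highest. The log2 fold changes were -0.65 for EPHB6, an Eph receptor without kinase activity, -0.63 for NEO1, a receptor for netrins and repulsive guidance molecules, and -0.54 for NRP1, a co-receptor of semaphorins and VEGF (edgeR adjusted p = 0.0343, 0.0425, and 0.0457). The 1 higher member was the ligand NTN4, at 21.98, 19.6, and 18.6 CPM in R109K and 12.8, 11, and 13.9 in KK (0.67, edgeR adjusted p = 0.0343).

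TGFB2 and AJUBA were below pTRE in both derivatives and lower in KK than in R109K. In the list of TGF-beta, BMP, and YAP response genes, 2 of 26 passed at an adjusted p-value under 0.05, both higher in R109K. That is 7.69%, against 1.17% of all tested genes, and the median log2 fold change was 0.11. TGFB2, a TGF-beta ligand, stood at 162, 131, and 155 CPM in R109K, 81.7, 75.9, and 84.95 in KK, and 324, 292, and 297 in pTRE (log2 fold change 0.88, SE 0.13, edgeR adjusted p = 0.00604). AJUBA, a LIM protein that restrains the Hippo pathway, stood at 108, 117, and 119 in R109K, 71.2, 74.9, and 90.01 in KK, and 224, 247, and 268 in pTRE (0.54, edgeR adjusted p = 0.0458). The groups did not overlap in either gene. In the PDZ-LIM and actinin list PDLIM1 was the 1 of 16 (6.25%, against 1.17% of all tested genes).

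In the Wnt list, 2 of 44 genes (4.55%, against 1.17% of all tested genes) passed at an adjusted p-value under 0.05, in opposite directions. FZD2, a Frizzled receptor, stood at 36.95, 39.9, and 48.2 CPM in R109K, 19.8, 22.4, and 20.8 in KK, and 58.9, 55.9, and 78.6 in pTRE (log2 fold change 0.99, edgeR adjusted p = 0.00981). FZD2 passed the limit on the adjusted p-value of 0.01 and fell just short of 2-fold. LEF1, a transcription factor of this pathway, stood at 32.5, 35.1, and 32.6 in R109K, 43.9, 47.97, and 49.7 in KK, and 12.2, 12.3, and 11.6 in pTRE (-0.498, edgeR adjusted p = 0.0413). Thus KK was further from pTRE than R109K in both genes, below it in FZD2 and above it in LEF1.

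Among osteoblast lineage genes, RUNX3 was the 1 of 16 tested (6.25%, against 1.17% of all tested genes) at an adjusted p-value under 0.05. The list had a median log2 fold change of -0.29 and 13 of 16 members below 0, against 8213 of all 16625 tested genes. In the 6 samples with the block 9 members were lower and 2 higher (68.8%, against 21.3% of all genes in either direction). RUNX1 was at -0.36 (edgeR adjusted p = 0.271, and 0.000349 with that block), and it lies in a stretch of chromosome 21 described below whose genes were mostly lower in R109K. BMP2 and BMP4, bone morphogenetic proteins, went in opposite directions, at -0.56 and 0.699, and neither passed (edgeR adjusted p = 0.1104 and 0.0863). Both did with the block in the 6 samples (edgeR adjusted p = 0.000113 and 2.11e-06). With the block in all 12 samples BMP2 did not pass and BMP4 did so narrowly (edgeR adjusted p = 0.0567 and 0.0496). Of 33 collagen genes, COL22A1 passed (3.03%, against 1.17% of all tested genes, with a log2 fold change of -0.75, edgeR adjusted p = 0.0168). COL3A1, a fibrillar chain, had a log2 fold change of 1.39, at a mean of 4.80 CPM in R109K and 1.81 in KK. Its edgeR adjusted p was 0.0548, with the block 0.0228 in all 12 samples and 2.82e-05 in the 6 samples. LAMB3, a laminin chain, was the 1 of 29 integrins and laminins that passed (3.45%, against the same 1.17%, with a log2 fold change of -0.59, edgeR adjusted p = 0.0394).

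**Figure D3:**
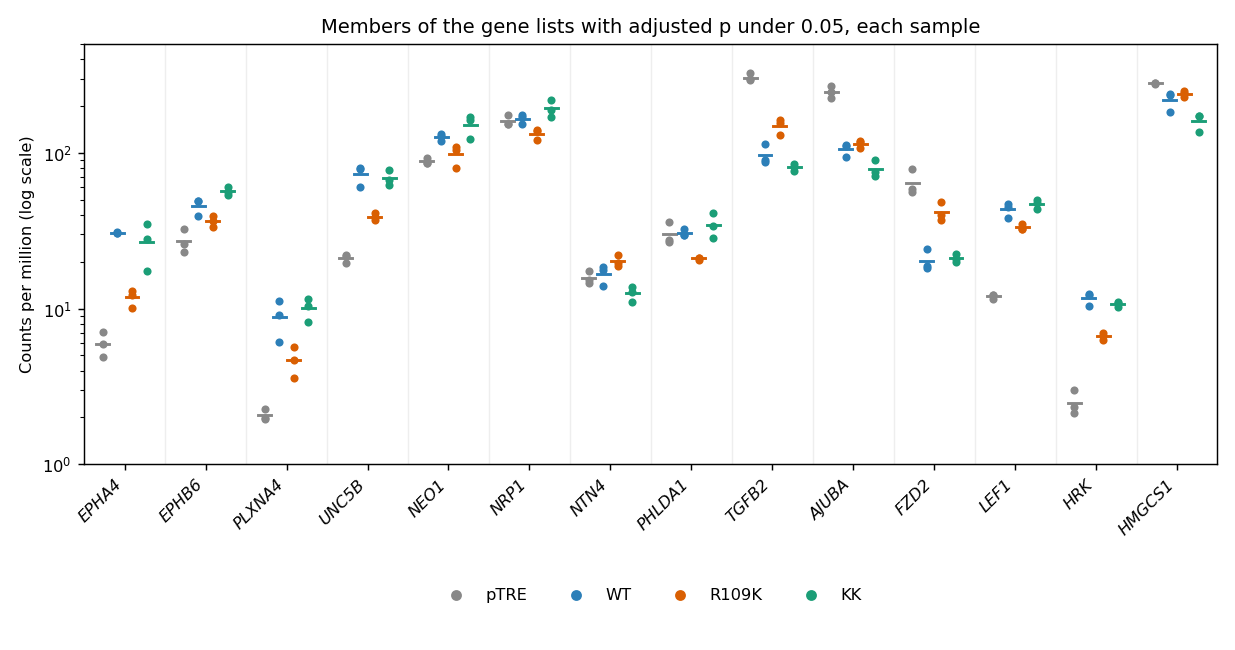
TMM-scaled CPM on a log axis, with 1 point per sample and a bar for the mean of the 3 samples of a line, for 14 members of the gene lists at an adjusted p-value under 0.05 between R109K and KK. From EPHA4 to NRP1, and in PHLDA1, LEF1, and HRK, the R109K samples lie below the KK samples, and in NTN4, TGFB2, AJUBA, FZD2, and HMGCS1 they lie above.

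Few interferon-stimulated and inflammatory genes passed the test. Of 33 interferon-stimulated genes, BST2 was higher and OASL lower in R109K at an adjusted p-value under 0.05. That is 6.06%, against 1.17% of all tested genes, and the list's median log2 fold change was -0.03. With the block in the 6 samples, 4 were higher and 7 lower (35.5%, against 21.3% of all genes). Of 23 inflammatory genes, 1 passed (4.35%, against 1.17% of all tested genes). This gene, IL11, a cytokine of the IL-6 family, was lower, at 22.8, 23.2, and 16.7 CPM in R109K, 40.1, 39.6, and 32.1 in KK, and 19.7, 21.4, and 24.1 in pTRE (-0.83, edgeR adjusted p = 0.0297).

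The metabolic lists had medians above 0, that is, toward higher levels in R109K, but few members passed. Of 31 cholesterol and fatty acid synthesis genes, 4 were below 0, against 8213 of all 16625 tested genes. The median log2 fold change was 0.20, with levels in both lines below pTRE (median log2 fold change -0.16 in R109K and -0.37 in KK). HMGCS1, an enzyme of the mevalonate pathway, was the 1 that passed (3.23%, against 1.17% of all tested genes). It stood at 244, 227, and 250.01 CPM in R109K, 172, 135, and 172 in KK, and 281, 279.6, and 278 in pTRE (0.59, edgeR adjusted p = 0.04204). In the 6 samples with the block, 16 were higher and 1 lower, and 54.8% of the list passed, against 21.3% of all genes tested there. Of 34 glycolysis and hypoxia genes, 0 passed at an adjusted p-value under 0.05 in edgeR, and at an unadjusted p-value under 0.05 there were 7, all higher, against 5.01% of all tested genes higher and 7.39% lower. The median was 0.16, and with the block in the 6 samples 14 were higher and 2 lower (47.1%, against 21.3%).

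None of the tested cell cycle genes that E2F1 is best known for passed in the model of 12 samples. At an adjusted p-value under 0.05 from edgeR, 0 of 47 DNA replication genes, 0 of 33 mitosis genes, 0 of 37 DNA damage checkpoint and repair genes, and 0 of 13 E2F and pocket protein genes passed. At an unadjusted p-value under 0.05 the counts higher and lower in R109K were 3 and 2 for replication, 4 and 1 for mitosis, 6 and 2 for damage and repair, and 0 and 0 for E2F and pocket proteins, against 5.01% and 7.39% of all tested genes. The 5 replication genes of 47 are thus no larger a share than that of all genes. The medians were 0.08, 0.16, 0.05, and 0.02 on the log2 scale, and over the 47 replication genes the log2 fold changes ranged from -0.37 to 0.44. With the block in the 6 samples, 16 of the 33 mitosis genes were higher and 1 lower (51.5%), 9 of 47 replication genes were higher and 4 lower (27.7%), and 10 of 37 damage and repair genes were higher and 2 lower (32.4%), against 21.3% of all genes. Among the mitosis genes, ANLN, the cytokinesis protein anillin, had a log2 fold change of 0.41 (edgeR adjusted p = 0.179, and 0.000101 with the block), and TOP2A, a topoisomerase, one of 0.304 (edgeR adjusted p = 0.267, and 0.001797 with the block).

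Of 25 apoptosis genes known to be under E2F control, 1 had an adjusted p-value under 0.05 (4%, against 1.17% of all tested genes). This gene, HRK, encodes a BH3-only activator of cell death. HRK stood at 6.97, 6.25, and 6.63 CPM in R109K, 10.97, 10.8, and 10.3 in KK, 2.15, 2.32, and 3.01 in pTRE, and 12.3, 12.4, and 10.4 in WT (log2 fold change -0.69, SE 0.15, edgeR adjusted p = 0.0355). The order was pTRE, R109K, and then KK and WT together, without overlap of R109K with any of the others. PPP1R13B, which encodes the p53 partner ASPP1, had a log2 fold change of -0.57 (edgeR adjusted p = 0.0647). Of 20 p53 targets, 0 passed in edgeR, with 5 higher and 0 lower at an unadjusted p-value under 0.05, against 5.01% and 7.39% of all tested genes. With the block in the 6 samples, 7 p53 targets were higher and 1 lower (40%), and 2 apoptosis genes were higher and 5 lower (28%), against 21.3% of all genes. PPP1R13B passed in that fit (edgeR adjusted p = 1.48e-05) but not with the block in all 12 samples (edgeR adjusted p = 0.0681).

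No gene of the methylation and splicing lists passed in the model of 12 samples, whereas some did with the block in the 6 samples. Of 16 arginine methyltransferases and readers tested, 0 had an adjusted p-value under 0.05 in edgeR, and 1 was higher and 1 lower at an unadjusted p-value under 0.05. PRMT1 stood at 195.2 CPM in R109K and 191.6 in KK, and PRMT5 at 84.9 and 86.9. Of 37 snRNP and SMN complex genes, 0 passed, and 1, EFTUD2, had an unadjusted p-value under 0.05. Over all tested genes, 5.01% were higher and 7.39% lower at that unadjusted threshold. With the block in the 6 samples, 3 methyltransferases and readers were higher and 2 lower (31.2%), and 3 snRNP and SMN complex genes were higher and 2 lower (13.5%), against 21.3% of all genes. Among these were PRMT2 and EFTUD2, higher by log2 fold changes of 0.31 and 0.28 (edgeR adjusted p = 0.00167 and 0.00164).

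The differences were unevenly placed along the genome. Of the 24 genes on chromosome 15 at an adjusted p-value under 0.05, all were lower in R109K, out of 518 tested there (4.63%, against 1.17% of all tested genes), and the median log2 fold change of the chromosome was -0.16. On chromosome 21, 7 of 162 (4.32%) passed, 6 of them lower, and the median was -0.17. To describe this, stretches were defined after these values were seen, as runs of windows of 20 neighbouring tested genes whose median log2 fold change was beyond 0.3 in size with at least 18 genes on that side. This gave 5 stretches lower in R109K with 312 genes and 6 stretches higher with 148 genes. Because the stretches were chosen by the fold changes, their values are a description.

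The stretch with the most tested genes lay on chromosome 15 from 41164412 to 56537280 (GRCh37). Of its 118 tested genes, 94.1% were lower in R109K, with a median log2 fold change of -0.44. Relative to the pTRE mean, the median over these genes was 0.14, 0.04, and 0.14 in the R109K samples, 0.56, 0.37, and 0.56 in the KK samples, and 0.24, 0.47, and 0.25 in the WT samples, on the log2 scale. KK was thus the line further from pTRE. The second stretch on this chromosome, from 69591251 to 75194560, held 44 genes with 40 lower in R109K and a median of -0.34, and NEO1 lies in it. Here R109K was near pTRE (-0.04, -0.06, and -0.01) and KK above it (0.25, 0.40, and 0.30).

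On chromosome 21, from 22370727 to 41045064, 81 of 85 genes were lower in R109K, with a median of -0.35. Here R109K was the line further from pTRE (-0.15, -0.22, and -0.27), while KK was at 0.11, 0.12, and 0.09. The stretches higher in R109K held 20 to 36 genes each, with medians from 0.28 to 0.33. In the one on chromosome 16, from 14726788 to 20911671, the KK samples were at -0.31, -0.35, and -0.29 and the R109K samples near pTRE.

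Genes in these stretches included ADAL (log2 fold change -0.90, edgeR adjusted p = 0.00546), RTF1, a component of transcription elongation complexes (-0.62), and HCN4, a pacemaker channel (-0.85), on chromosome 15, and SCAF4, an RNA polymerase-binding protein (-0.62), and CHAF1B, a histone chaperone subunit (-0.44), on chromosome 21. They were chosen after their values were seen. Of the 143 genes lower in R109K at an adjusted p-value under 0.05, 23 lay in stretches. They were 7.37% of the 312 genes in the stretches lower in R109K, which were chosen by fold change, against 1.17% of all tested genes. None of the 15 genes past the strict thresholds lay in a stretch, although THBS1 and SCG5 are on chromosome 15. Outside the stretches, 168 of 16165 genes (1.04%) passed at an adjusted p-value under 0.05. Of 784 list members tested, 24 lay in a stretch. NUSAP1 and KIF23 of the mitosis list and DUT of the replication list, on chromosome 15, had log2 fold changes below 0 while the medians of their lists were above it, and LSS of the cholesterol list, on chromosome 21, was at 0.61. FZD2 lay in a stretch on chromosome 17 that was higher in R109K. RUNX1 of the osteoblast list, at -0.36, lay in the chromosome 21 stretch that was lower in R109K, whose median was -0.35. RNA counts do not measure DNA copy number, and what underlies the stretches was not tested.

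**Figure D4:**
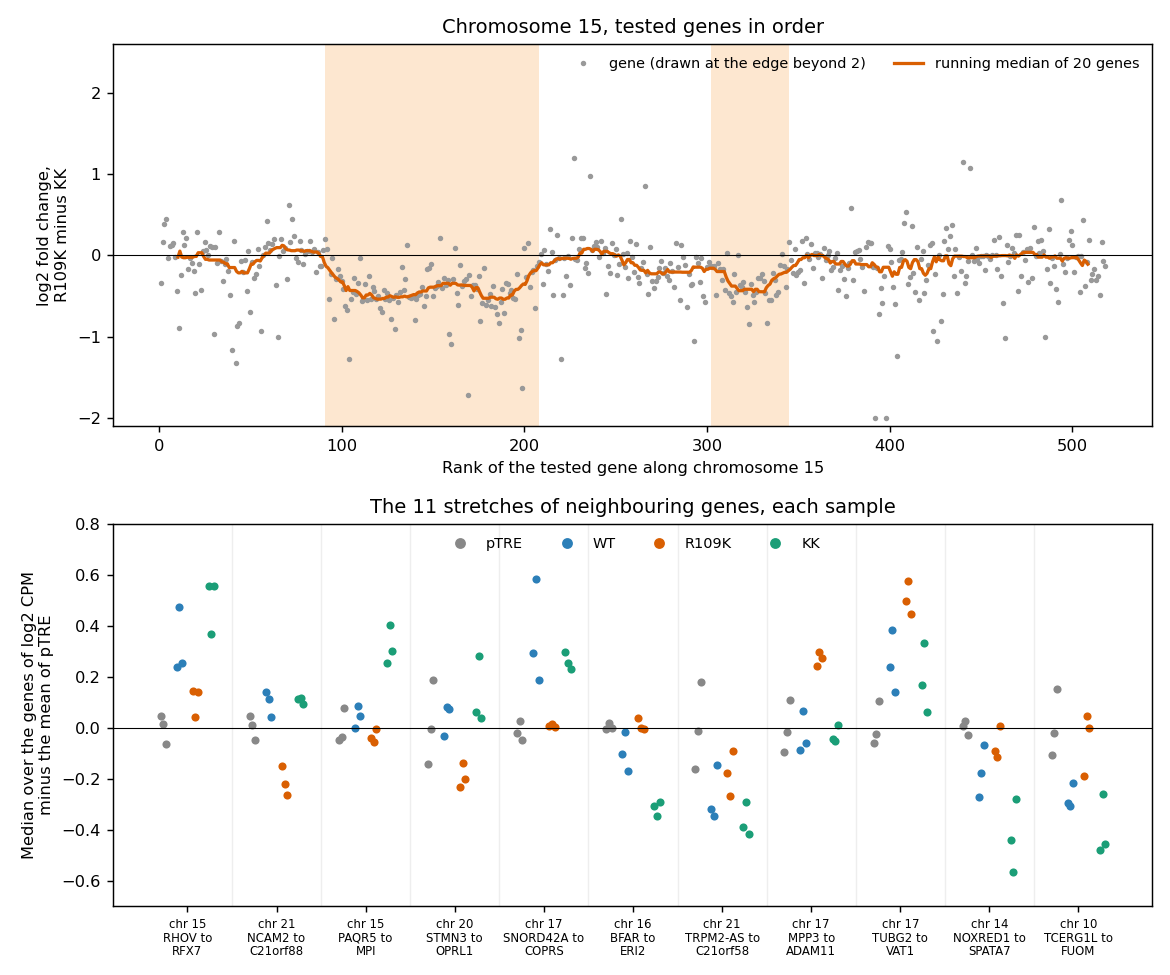
The upper panel shows the log2 fold change of R109K minus KK for each tested gene of chromosome 15 in order of position, with the running median of 20 genes in orange and the 2 stretches shaded, where the running median lies below 0. The lower panel shows, for each of the 11 stretches, the median over its genes of log2 CPM minus the pTRE mean, 1 point per sample.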

How the data were processed

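RNA-seq libraries from 12 samples, 3 of each of 4 stable lines, were analysed from the raw read counts per gene that the authors deposited, 1 file per sample. Per the submitters' processing notes, Trim Galore 0.4.3, STAR 2.5.1, DESeq2 1.16.1, and hg19 (GRCh37) were used. The version of the gene annotation and the use of strand in counting are not given in the sources used here. The 5 summary lines of each file were kept out of library sizes and tests.

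Of 25369 genes, 16625 passed edgeR's filter on low counts. Counts were fitted with edgeR 4.0.16 (quasi-likelihood test, TMM scaling, 12 samples, 1 coefficient per line) in R 4.3.3, with limma 3.58.1, and p-values were adjusted over all tested genes by the Benjamini-Hochberg method. Calls needed an adjusted p-value below 0.01 together with more than a 2-fold change, and counts at an adjusted p-value under 0.05 are also given. Levels are CPM on TMM library sizes, and log2 CPM per sample used a prior count of 2. The fits were tested on simulated data. Alternatives were DESeq2 1.42.0, other filters, scaling, samples, and thresholds, and a replicate block. The main fit held no term for the replicate number, so its counts and p-values are unpaired. Pairing by the replicate numbers of the labels entered only through the block in the alternatives. It was tried because deviations from the line means correlated at 0.411, 0.470, and 0.294 for R109K and KK samples of the same number. For different numbers the correlations ranged from -0.342 to 0.0370. The notes do not say what a number marks.

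The comparison, gene lists, and tests were chosen with earlier results of these data known, so list counts are descriptions. Named were all called genes, E2F1 and the genes the study names for this comparison, the 12 largest changes in each direction at an adjusted p-value under 0.05 averaging 50 or more counts without overlapping samples, up to 4 members of each list with the smallest p-values, and genes called against pTRE in both lines with opposite signs. Positions are from the GENCODE annotation lifted to GRCh37, to which 22717 symbols were matched, 1472 through an older symbol.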

Additional observations from a re-analysis of the deposited data

Results flagged for a closer look

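ETV1 moved in opposite directions from pTRE in the 2 derivatives, and the difference itself was tested by the direct comparison. The log2 fold change of R109K against KK was -3.69 (adjusted p = 0.000896 from edgeR), lower in 3 of 3 R109K samples than in every KK sample. Against pTRE it was -1.75 in R109K and 1.94 in KK. The R109K level rests on 21 reads over 3 samples. Without R109K replicate 3 the adjusted p was 0.0109 from edgeR, above the threshold, and ETV1 passed the thresholds in 13 of 14 alternative fits. These leave out glmTreat, which 0 genes passed.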

How the results depend on the processing

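The count of 15 transcripts past the thresholds was 16 with RLE scaling, 64 with DESeq2, 32 with no filter on low counts, 8 with at least 10 counts in every sample, 3 with the 6 R109K and KK samples alone, 45 with the 9 samples of pTRE, R109K, and KK, 60 at an adjusted p-value under 0.05 with the 2-fold limit kept, and 0 when edgeR's glmTreat tested the fold change against 2-fold, where 82 had an unadjusted p-value under 0.05. The count of 194 at an adjusted p-value under 0.05 was 551 with DESeq2 and 433 with the 9 samples, and between 185 and 223 with RLE scaling, the other filters, and the 6 samples alone. Leaving out 1 R109K or KK sample gave from 1 to 11 and from 8 to 179, and leaving out WT replicate 2 gave 41 and 465. Higher and lower in R109K at the strict thresholds were 19 and 45 with DESeq2, 12 and 33 with the 9 samples, and 10 and 22 with no filter. With the block in the 6 samples they were 38 and 91. The split was 7 and 9 with RLE scaling, and 2 and 1 with the 6 samples alone. Fewer samples and genes enter some of these fits, and the cause of the other changes was not tested.

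With the replicate block in the model of 12 samples the counts were 14 and 231, and the log2 fold change of E2F1 was -0.19. The block took THBS1, SSTR5, and FA2H out of the calls. With the block in the 6 samples alone the counts were 129 and 3416, in a fit with few degrees of freedom left for the spread. The log2 fold change of E2F1 stayed negative in every alternative and ranged from -0.30 to -0.05 when 1 sample of either line was left out.

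PDLIM1 passed the thresholds in 15 of 15 alternative fits, MEGF6 in 12 of 15, and DEF6 in 11 of 14, and the other called genes besides ETV1 in 6 to 10. These tallies leave out glmTreat, in which 0 genes passed. The median of the Wnt list had the other sign in 10 of 15 alternatives, that of the epithelial-mesenchymal transition list in 7, and that of the FGF ligands in 6, whereas those of the ERK, axon guidance, mitosis, replication, and cholesterol lists kept their sign in all 15. Depth limits the genes under about 1 CPM, such as ETV1 and CYP2E1.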
